A study of Saccharomyces cerevisiae with 2 samples.

Results

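Strains without genes of the nuclear pore complex were examined in pools of haploid yeast deletion strains that did or did not overexpress LCD1. The 31 genes were chosen by name, as the structural and closely bound proteins of the pore, and 29 of them had named features on the arrays, of 5325 named strains in all. NUP157 and SEH1 had none and were not analysed here. From textbook knowledge, 10 of the 29 genes are essential, so that haploids lacking them cannot be expected to grow with either plasmid, and 19 are nonessential. Of these 19, GLE2, NUP1, NUP84, NUP85, NUP116, NUP120 and NUP133 are known for a growth or temperature defect, or are needed to different degrees in different strain backgrounds.

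The LCD1 pool carried a plasmid with LCD1 under the galactose-inducible GAL1 promoter, and the control pool carried a control plasmid, both with URA3 as the marker. The product of LCD1, also known as Ddc2, binds the checkpoint kinase Mec1. Both pools came from the same 5896 heterozygous diploid knockout strains of Saccharomyces cerevisiae, which can be turned into haploids, and both were sporulated and selected as haploids for 3 days at 30 °C with 2% galactose as the carbon source. Each strain therefore lacked 1 gene in both pools, and the plasmid was the difference between them. Each strain carries 2 DNA tags that identify it, which were amplified from genomic DNA of the pools and read by array features. Tags of the LCD1 pool were labelled with Cy3 and tags of the control pool with Cy5 on each of 2 arrays. Dye and pool cannot be told apart. Likewise, fewer cells of a strain and poorer amplification of its tag cannot be told apart. The sample titles name 2 numbered experiments, but whether the arrays hold independent cultures is not stated, so their spread may be technical. The series title names the question as synthetic lethality between single deletions and excess LCD1.

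The nuclear pore complex is the gate through which proteins and RNA pass between nucleus and cytoplasm. An outer ring, an inner ring and a membrane ring form its frame, proteins with repeats of phenylalanine and glycine (FG repeats) fill the channel, and a cytoplasmic platform and a nuclear basket extend from its faces. The cytoplasmic platform remodels messenger RNA as it leaves the pore. Yeast strains without subunits of the outer ring are also known to be sensitive to DNA damage.

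All values are log2 ratios of tag signal, LCD1 pool over control pool, centred on the median strain, and each strain has a first and a second tag on each array. The direction is likely rather than stated. The strain without LCD1 itself, which can grow only with the LCD1 plasmid, had deposited ratios of 0.05 and 0.03 for its first tag and 0.44 and 0.73 for its second, so the deposited ratio was taken as control over LCD1 pool and turned. Were it the other way, every sign given here would turn. No intensities come with the ratios, which leaves signal over background unknown, and precision is limited by the number of arrays. Strains were tested with limma over all 5325 strains (Benjamini-Hochberg adjustment, threshold 0.05), and, as a size rule, strains were counted that lay 2-fold or more from 0 on both arrays with the same sign. Limma called 0 strains lower and 0 higher (0% each), and its lowest adjusted p over all strains was 0.0941. At an unadjusted p under 0.05 limma gave 573 strains lower (10.8%) and 616 higher (11.6%). The size rule took 97 strains lower (1.82%) and 37 higher (0.695%), and without centring 78 lower and 60 higher. With the first tag alone it took 270 lower and 98 higher, and with the second tag alone 30 lower and 80 higher, so the balance of lower and higher strains depends on the tag.

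Of the 29 nuclear pore strains, the size rule took 1 lower, the strain without GLE2, and 1 higher, the strain without NUP188. These shares of 3.45% each stand beside the 1.82% and 0.695% of all strains, and each rests on a single strain. At 1.5-fold on both arrays there was 1 member lower (4.34% of all strains) and 3 higher, NUP188, POM152 and NUP159 (3.87%). At an unadjusted p under 0.05 limma gave 2 members lower, GLE2 and NUP116, against 10.8% of all strains, and 6 higher, NUP188, POM152, NUP159, NUP133, NUP53 and NUP84, against 11.6%. No member passed limma's test after adjustment. With 2 arrays and 1 residual degree of freedom the adjusted test had almost no power to call any strain, so missing it says nothing about whether a strain changed. The median of the 29 strains was 0.11, against 0.04 over all strains, and 18 of them had means above 0 (62.1%, against 54.1% of all strains) and 11 below (37.9%, against 45.9%). On both arrays 16 of the 29 members lay above 0 and 10 of the 29 below, counts to be read against 37.7% and 34% of all strains.

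**Figure D1:**
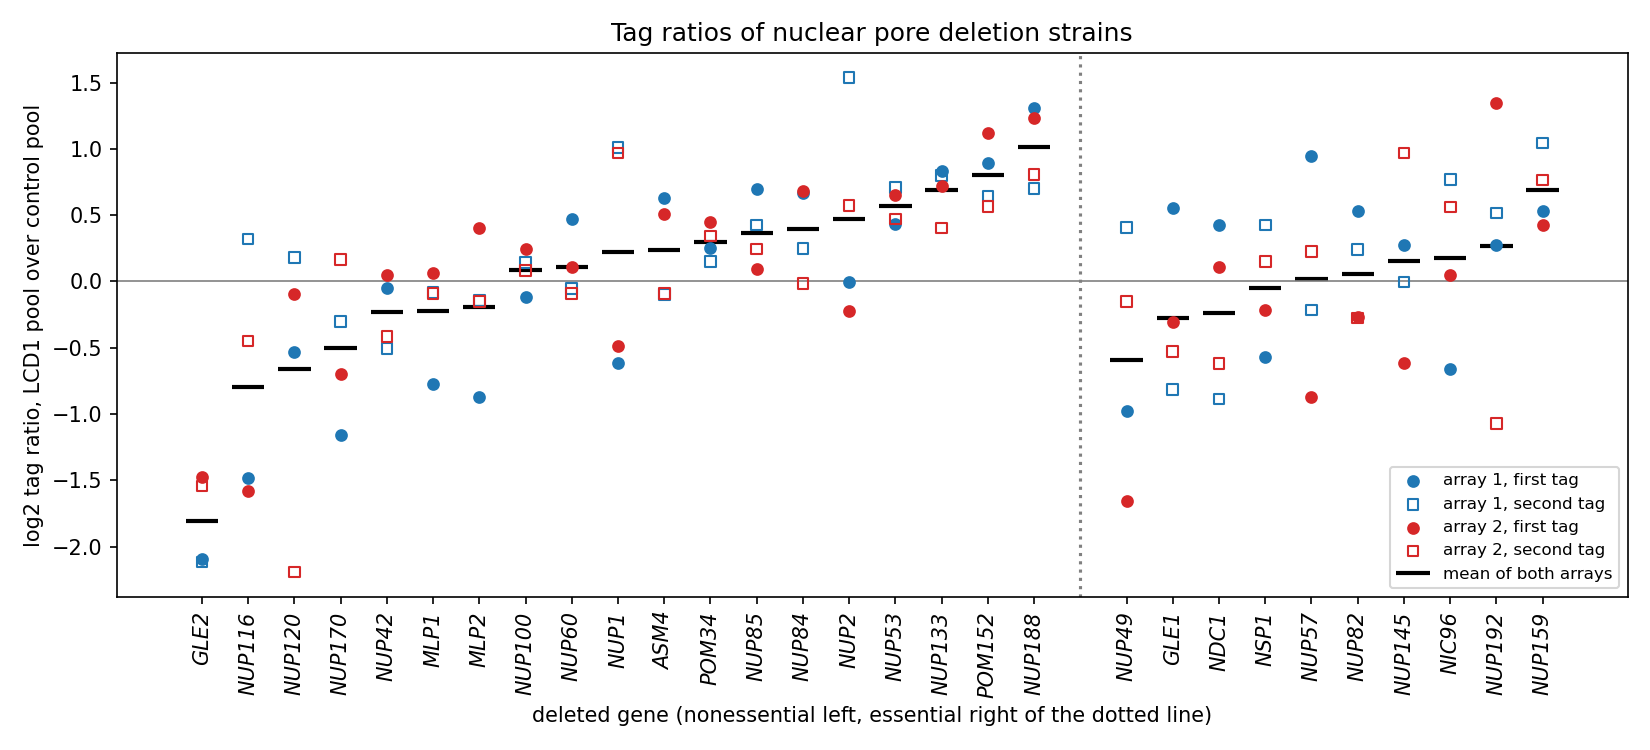
Log2 tag ratios (LCD1 pool over control pool, vertical axis) of the 29 nuclear pore strains, ordered by their mean within the nonessential (left) and essential (right) genes. Circles are first tags, squares second tags, colours the 2 arrays and bars the mean of both arrays. The 4 values of the GLE2 strain lie together between -2.12 and -1.47, and 7 strains have all 4 values above 0. In all other strains, NUP120, NUP1 and most essential genes among them, the 4 values lie on both sides of 0.

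GLE2 (YER107C) encodes a messenger RNA export factor of the cytoplasmic side of the pore, known as Rae1 in other species, which binds the FG protein Nup116. Its deletion strain had first-tag values of -2.09 on array 1 and -1.47 on array 2. Its second tag read -2.12 and -1.54. The tags agree to within 0.07 on each array, and the arrays differ by more than the tags do. The strain value was -2.10 on array 1 and -1.51 on array 2, with a mean of -1.81 ± 0.42 (SD, n = 2), which is 3.5-fold lower in the LCD1 pool. Among all 5325 strains it ranked 35 from the lowest. Limma gave an unadjusted p of 0.0017 and an adjusted p of 0.117, which did not pass.

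GLE2 had 6 features for each tag, so the error within an array could be measured. In all, 793 strains had 6 or more features for the first tag. On array 1 its 6 first-tag features lay between -2.23 and -1.99 and its 6 second-tag features between -2.27 and -1.75. On array 2 they lay between -1.64 and -1.26 and between -1.64 and -1.42. All readings were thus at or below -1.26, and the features of array 1 did not overlap those of array 2. In the ratios as deposited, control over LCD1 pool by the likely direction, the GLE2 features spanned 2.98 to 4.43 on array 1 and 2.25 to 2.93 on array 2.

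The second tag of GLE2 ranked 14 from the lowest on array 1 and 32 on array 2, and the first tag ranked 141 and 213. It was the 1 nuclear pore strain at least 2-fold away on both tags of both arrays, a rule that took 20 strains on the lower side (0.376%) and 8 on the higher (0.150%). A limma fit that used the 4 tag values of each strain gave GLE2 an adjusted p of 0.0412. That fit called 14 strains lower (0.264%) and 10 higher (0.188%), GLE2 being the only nuclear pore strain among them. Because the tags of an array share their pools, they are not independent, and the p of this fit is too small.

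**Figure D2:**
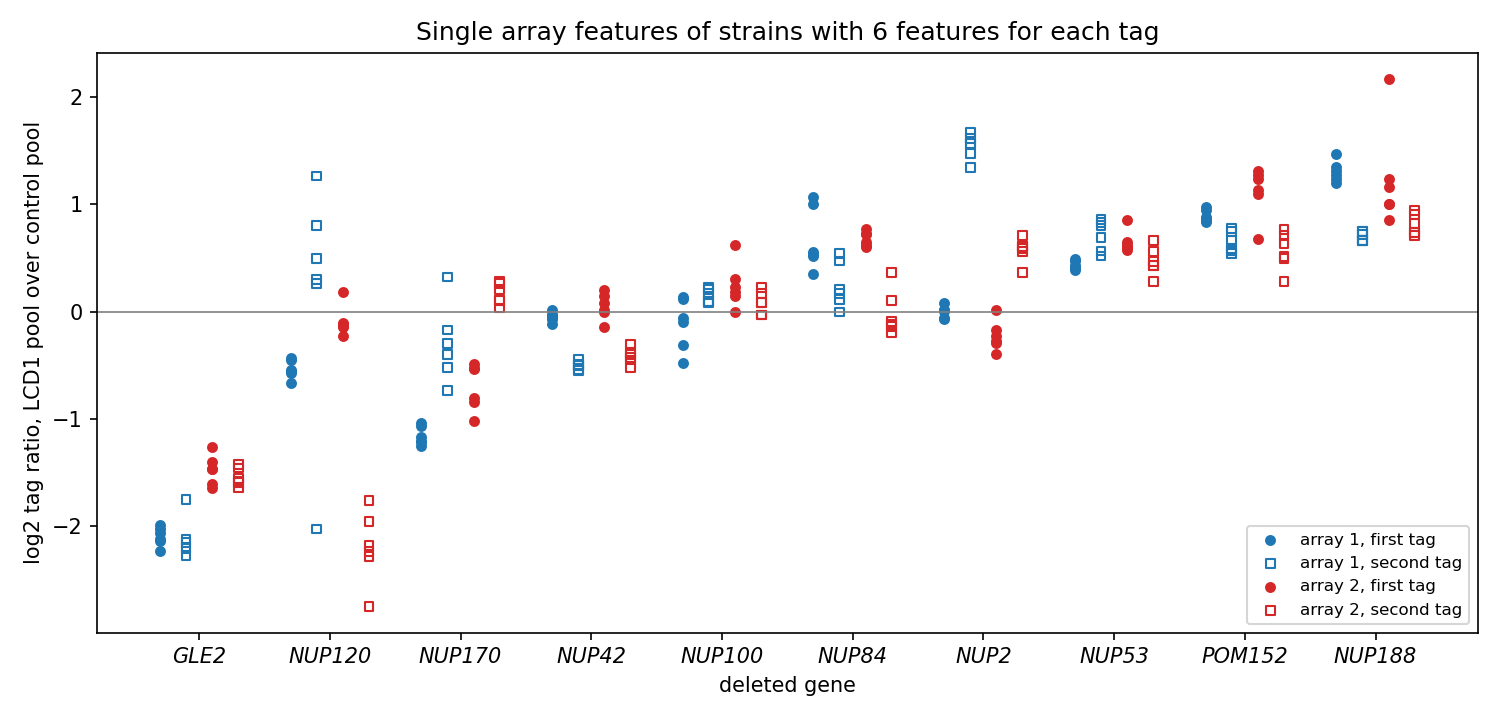
Single array features of the 10 nuclear pore strains with 6 features for each tag (vertical axis, centred log2 ratio, LCD1 pool over control pool). Circles are first tags, squares second tags and colours the arrays. All GLE2 features lie at or below -1.26 and all NUP188, POM152 and NUP53 features above 0, while the second tag of NUP120 spans -2.02 to 1.26 on array 1.

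GLE2 was set against the other 18 nonessential nuclear pore strains, whose median was 0.23 with quartiles of -0.21 and 0.45. GLE2 lay below the lowest of them on each array. On array 1 it read -2.10 and the lowest of the others was NUP170 at -0.73. On array 2 it read -1.51 and the lowest of the others was NUP120 at -1.14. GLE2 minus the median of the others was -2.31 on array 1 and -1.68 on array 2, a mean of -1.99 ± 0.45 (SD, n = 2). An exact sign-flip permutation test over the 2 arrays gave a two-sided p of 0.5, the smallest that 2 arrays allow. Both differences lay below 0, so this p was fixed by the number of arrays and nothing is read from it. GLE2 was also singled out with earlier results of these data known, so the difference is a description only. Per tag, the differences were -2.22 and -2.33 for the first and second tag on array 1 and -1.65 and -1.67 on array 2. Single tags of other strains did go lower: on array 2 the first tag of NUP116 read -1.58 and the second tag of NUP120 read -2.19.

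**Figure D3:**
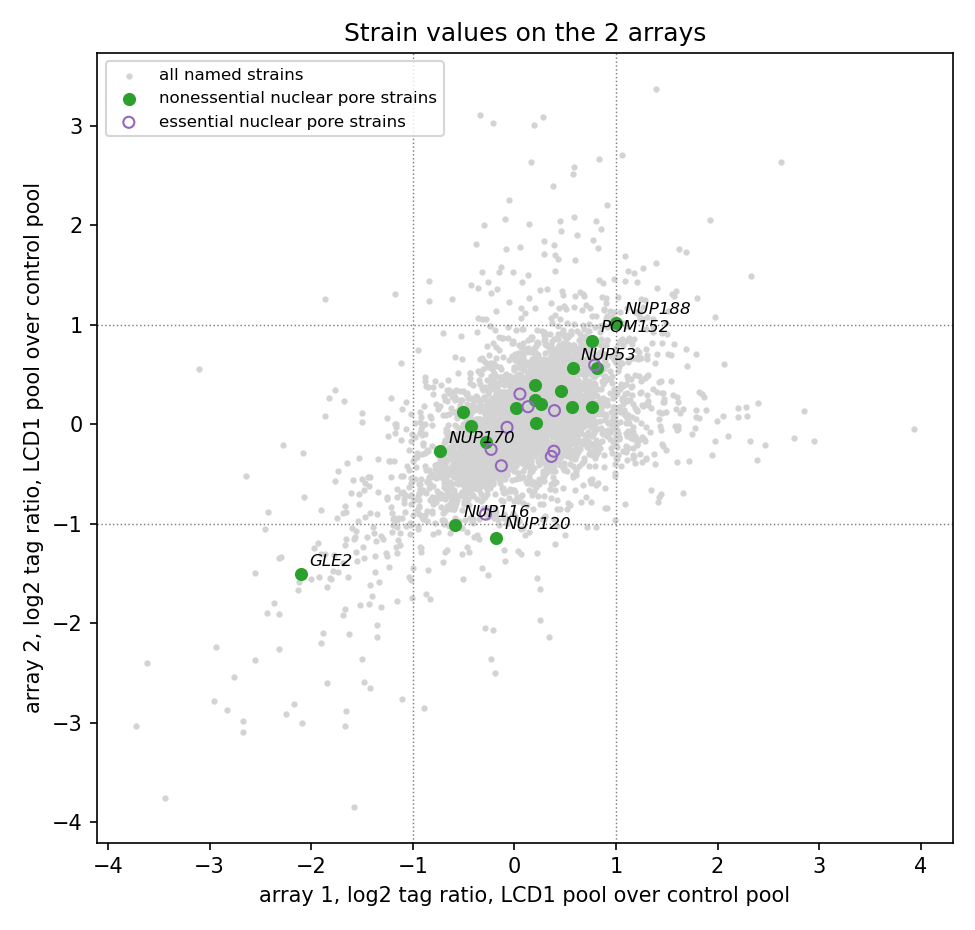
Strain values on array 1 (horizontal axis) and array 2 (vertical axis), both log2 ratios of LCD1 pool over control pool. Grey points are all 5325 named strains, green points the nonessential and open purple points the essential nuclear pore strains, and dotted lines mark 2-fold. GLE2 stands apart from the other nuclear pore strains at the lower left, and NUP188 lies at the edge of the 2-fold corner at the upper right.

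The genes beside GLE2 on its chromosome were looked up in the yeast gene table to see how their deletion strains read. NUP157, which lies close to GLE2, had no named feature. The strains without MAM1, a meiotic gene next to GLE2, and RTT105 on the same side had means of -0.41 ± 0.070 and -0.20 ± 0.21. The 4 tag values of MAM1 lay between -0.48 and -0.25 and those of RTT105 between -0.61 and 0.12. On the other side, the transcription factor gene FLO8 had a mean of -0.07 ± 0.020, with tag values between -0.43 and 0.26. KAP123, which encodes an import receptor for ribosomal proteins, had a mean of -0.45 ± 0.019, with all 4 tag values between -0.55 and -0.37. All 4 means lay below 0, as did 45.9% of all strains, and those of FLO8 and RTT105 had tags on both sides of 0. The lowest of them was -0.45, against -1.81 for GLE2.

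NUP116 (YMR047C) encodes the FG protein that Gle2 binds, and its strain had the second lowest mean of the 29. The first tag stood at -1.48 on array 1 and at -1.58 on array 2. Its second tag read 0.32 and -0.45. The first tag was thus low on both arrays and the second was not. The mean was -0.80 ± 0.31 (SD, n = 2), with a limma unadjusted p of 0.013 and an adjusted p of 0.158. Each tag was read by 2 features, and those of the first tag gave deposited ratios of 2.10 and 3.30 on array 1 and 2.18 and 3.62 on array 2. Next to NUP116 on its chromosome lies CSM3, a gene of the replication fork protection complex, chosen here after its values were seen. The CSM3 strain read -1.69 and -1.35 on its first tag and -1.86 and -1.28 on its second. The other neighbours, likewise added after their values were seen, had means of -0.17 ± 0.012 (ERB1), 0.29 ± 0.41 (IOC4) and 0.57 ± 1.01 (MCM1). The part of CSM3 in the NUP116 value was not tested.

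NUP100 encodes an FG protein that is a paralog of Nup116, without the Gle2-binding stretch. Its strain stood at 0.09 ± 0.11, with tag values between -0.12 and 0.25. NUP100 thus read higher than NUP116 on both arrays, by 0.59 on array 1 and 1.18 on array 2. The NSP1, NUP49 and NUP57 genes encode the essential FG proteins of the central channel. NUP49 had the lowest mean of the 10 essential strains, -0.59 ± 0.44, from a first tag at -0.97 and -1.65 and a second tag at 0.41 and -0.15, with a limma adjusted p of 0.230. The strains without NSP1 and NUP57 had means of -0.05 ± 0.029 and 0.02 ± 0.49.

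The other nonessential gene of the cytoplasmic platform is NUP42, which encodes an FG protein that docks the export factor Gle1. Its strain gave -0.23 ± 0.067, and its tags differed in the same way on both arrays, at -0.05 and 0.05 for the first and -0.51 and -0.41 for the second. The essential genes GLE1, which encodes an activator of the RNA helicase Dbp5, and NUP82, which encodes a scaffold protein, had means of -0.27 ± 0.20 and 0.06 ± 0.47. The first tag of GLE1 read 0.56 and -0.30 and its second -0.81 and -0.53, with a limma adjusted p of 0.339. NUP159 encodes the essential FG protein on which Dbp5 docks, and its strain had the highest mean of the essential strains. Its first tag read 0.53 and 0.43 and its second 1.05 and 0.76, all above 0, with a mean of 0.69 ± 0.14, a limma unadjusted p of 0.0096 and an adjusted p of 0.146. Haploids without NUP159 should grow in neither pool, so this is a tag ratio and no measure of growth.

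The inner ring held the highest strain of all nuclear pore genes. NUP188 (YML103C) encodes a large scaffold protein of this ring. The first tag stood at 1.31 on array 1 and at 1.24 on array 2. Its second tag read 0.70 and 0.81. All 4 values lay above 0 and the first tag was the higher one on both arrays. The strain value was 1.002 on array 1 and 1.022 on array 2, a mean of 1.01 ± 0.014 (SD, n = 2), 2.02-fold higher in the LCD1 pool. It ranked 109 from the highest of all strains. Limma gave an unadjusted p of 0.0021 and an adjusted p of 0.117. NUP188 thus lay just inside the 2-fold rule on both arrays, and POM152, at 0.77 and 0.84, was the member next outside it. With the median in place of the mean over features, after scaling of the tag blocks, or with the second tag alone, NUP188 no longer met the rule. On chromosome XIII the strains without MDM1 and SEC65 on one side of NUP188 stood at 0.29 ± 0.19 and 0.16 ± 0.41, and those without CAC2 and CUE4 on the other at 0.21 ± 0.045 and -0.48 ± 0.0060, neighbours that were added after the values were seen.

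The other inner ring strains ranged between NUP170 and NUP53. NUP53 encodes a linker that also binds the import receptor Kap121, and its 4 tag values were 0.44 and 0.65 for the first tag and 0.71 and 0.47 for the second. Its mean was 0.57 ± 0.0082, with a limma unadjusted p of 0.014 and an adjusted p of 0.158. The strain without ASM4, a paralog of NUP53 also called NUP59, had a mean of 0.24 ± 0.039, but its first tag read 0.63 and 0.51 and its second -0.10 and -0.09. NUP53 read higher than ASM4 by 0.31 on array 1 and 0.35 on array 2. NUP170 encodes a scaffold protein with a paralog, Nup157, whose strain was not analysed here. The NUP170 strain had first-tag values of -1.16 and -0.70 and second-tag values of -0.30 and 0.16, a mean of -0.50 ± 0.33. The essential genes NIC96 and NUP192 had means of 0.18 ± 0.18 and 0.27 ± 0.18, and NUP192 was the second highest essential strain. The first tag of NUP192 read 0.27 and 1.35 and its second 0.52 and -1.07, with a limma adjusted p of 0.336.

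In the membrane ring, both nonessential strains lay above 0 on every tag. POM152 (YMR129W) encodes a protein that spans the pore membrane, and its strain read 0.89 and 1.12 on the first tag and 0.65 and 0.57 on the second. Its mean of 0.80 ± 0.052 was the second highest of the 29 and ranked 220 from the highest of all strains, with a limma unadjusted p of 0.0047 and an adjusted p of 0.129. POM34 encodes another membrane protein of this ring, and its strain read 0.25 and 0.45 on the first tag and 0.15 and 0.34 on the second, with a mean of 0.30 ± 0.14. The essential NDC1, which acts at pores and at the spindle pole body, had a mean of -0.24 ± 0.017 made of opposite tags, at 0.43 and 0.11 for the first and -0.89 and -0.62 for the second.

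**Figure D4:**
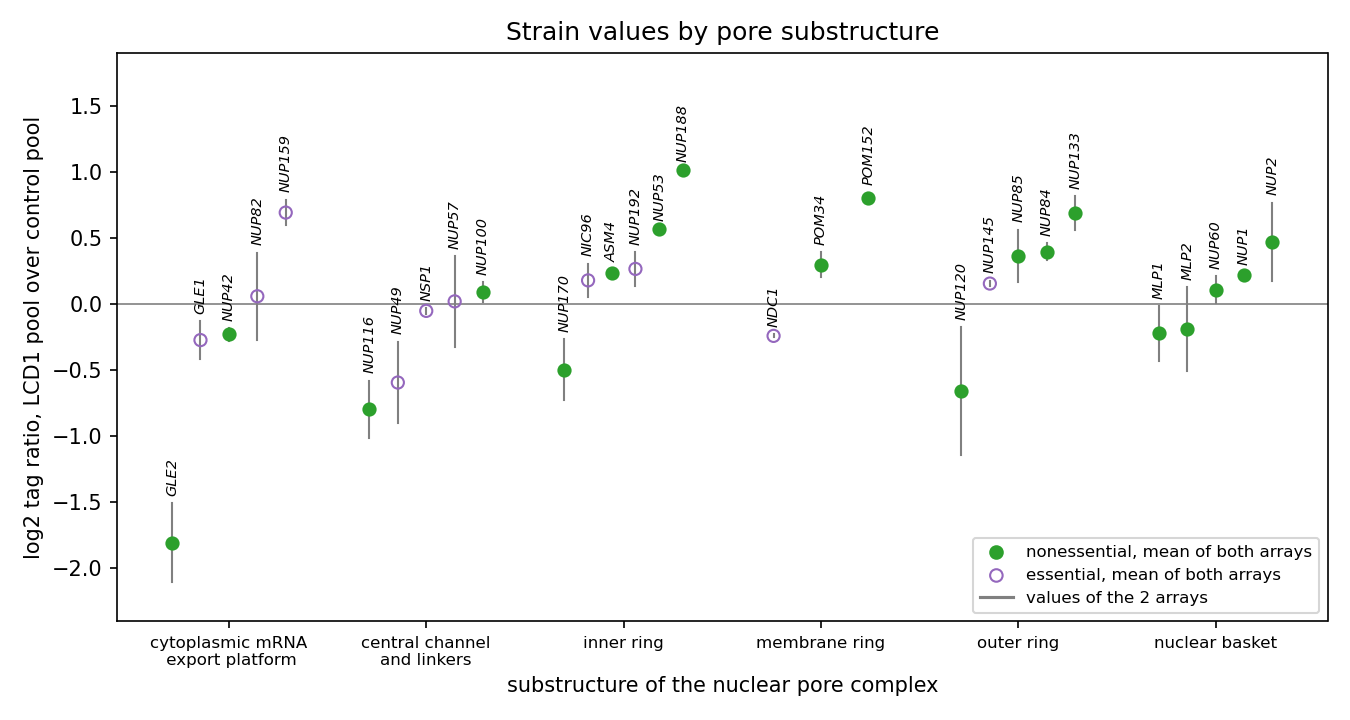
Mean log2 ratio (LCD1 pool over control pool, vertical axis) of each nuclear pore strain by substructure. Filled green points are nonessential and open purple points essential genes, and grey lines join the values of the 2 arrays. GLE2 lies lowest and NUP188 highest, and 5 of 6 inner ring and 4 of 5 outer ring strains have means above 0, as do 54.1% of all strains.

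The outer ring, or Y complex, coats the pore membrane. Its strain without NUP133 had 4 tag values above 0, 0.83 and 0.72 for the first tag and 0.80 and 0.40 for the second, with a mean of 0.69 ± 0.18, a limma unadjusted p of 0.011 and an adjusted p of 0.151. The strains without NUP84 and NUP85 stood at 0.40 ± 0.089 and 0.37 ± 0.28, and the limma unadjusted p of NUP84 was 0.042 (adjusted p 0.211). NUP145, an essential gene whose product is cut into an FG protein and an outer ring protein, had a mean of 0.16 ± 0.030 from tag values between -0.62 and 0.97. NUP120 was the 1 outer ring strain with a mean below 0, -0.66 ± 0.68. Its first tag read -0.54 and -0.09, and its second 0.18 on array 1 and -2.19 on array 2. The 6 features of that second tag had an SD of 1.14 on array 1, the widest of any nuclear pore strain with 6 features, and of 0.33 on array 2. On array 1 the lowest of these features read -2.02 and the others lay between 0.26 and 1.26. The mean of NUP120 rests mostly on the second tag of array 2, at -2.19. Without array 2 the NUP120 value was -0.18, and limma gave an unadjusted p of 0.095 and an adjusted p of 0.282 with both.

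The 5 strains of the nuclear basket had means between -0.22 and 0.47. NUP2, which encodes an FG protein that moves between basket and nucleoplasm, had the highest mean of them, 0.47 ± 0.42, with a first tag at -0.00 and -0.23 and a second tag at 1.54 and 0.57. NUP60, which encodes an anchor of the basket, gave 0.11 ± 0.14. NUP1, which encodes an FG protein of the basket, gave 0.22 ± 0.028, a mean of tags that lay apart, at -0.61 and -0.49 for the first and 1.01 and 0.97 for the second. MLP1 and MLP2, paralogs that encode the long filaments of the basket, had means of -0.22 ± 0.29 and -0.19 ± 0.45, and MLP1 minus MLP2 was 0.08 on array 1 and -0.14 on array 2. The paralogs differed by less than the spread between arrays.

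The substructures were described by their medians, since a list chosen with earlier results of these data known gets no test. The median was 0.37 for the outer ring (5 strains), 0.25 for the inner ring (6), 0.30 for the membrane ring (3) and 0.11 for the nuclear basket (5). It was -0.05 for the channel and linker proteins (5) and -0.23 for the cytoplasmic platform (5). These medians pool essential and nonessential strains. Most strains of the last 2 groups are essential, namely NSP1, NUP49 and NUP57 of the channel and GLE1, NUP82 and NUP159 of the platform. Their medians are therefore tag ratios and no measure of growth. Within the rings, 4 of 5 outer, 5 of 6 inner and 2 of 3 membrane ring strains had means above 0, with NUP120, NUP170 and NDC1 below. Over all strains 54.1% had means above 0, and each ring holds too few strains for a pattern to be read from these counts.

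The essential strains had their tags further apart than the nonessential strains. Without GLE2, 6 of the 18 nonessential strains had all 4 tag values above 0 (33.3%), against 16.7% of all strains. These were POM34, NUP85, NUP53, NUP133, POM152 and NUP188. All 4 values below 0 were found in 0 of the 18, against 16.4% of all strains. With GLE2 kept, 1 of 19 had all 4 values below 0 (5.26%) and 6 had all 4 above (31.6%). Of the 10 essential strains, 1 had all 4 values above 0 and 0 had all 4 below. The absolute difference between the tags, averaged over the arrays, had a median of 0.95 in the essential strains, 0.49 in the nonessential strains without GLE2 and 0.39 over all strains. All 10 essential strains had 1 feature for each tag, whereas 10 of the 19 nonessential strains had 6, and the part of this in the tag differences was not tested.

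Across the 18 nonessential strains without GLE2, Pearson's r was 0.739 between the arrays and 0.341 between the tags, each averaged over the other. With GLE2 these were 0.835 and 0.576, and over the 5325 strains 0.547 and 0.141. Across the 10 essential strains they were 0.653 and -0.222. These are descriptions across strains that share the same 2 hybridisations, and strains are not independent replicates. The median of the nonessential strains without GLE2 was 0.21 on array 1 and 0.17 on array 2, and that of the essential strains was 0.09 and -0.14. The essential median thus lay on opposite sides of 0 on the 2 arrays.

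3 lists of genes that work with the pore were read in the same way. Their counts below and above 0 stand beside 45.9% and 54.1% of all strains. Of 21 messenger RNA export genes, 20 were measured, with a median of -0.02, 10 below 0 and 10 above, and 0 past the size rule in either direction. SEM1, whose product belongs to the TREX-2 export complex and the proteasome, was the lowest at -0.76 ± 0.027, with all 4 tag values between -0.87 and -0.60. MEX67, which encodes the essential export receptor for messenger RNA, was the highest at 0.91 ± 0.34, with a second tag at 3.17 and a first at -0.88 on array 2. No export strain was as low as GLE2.

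Of 23 genes for transport receptors and the Ran cycle, 20 were measured, with a median of -0.15, 11 below 0 and 9 above. The size rule took 2 lower and 1 higher, against 1.82% and 0.695% of all strains. MSN5, a nonessential gene for a receptor that exports phosphorylated proteins, had the lowest mean, -1.93 ± 1.17, with tag values of -0.52 and -1.69 on array 1 and -4.94 and -0.58 on array 2. Its first tag on array 2 carried most of that value. NTF2, an essential gene whose product imports Ran, stood at -1.11 ± 0.022, with a first tag at -1.57 and -2.25 and a second at -0.68 and 0.07. CRM1, the essential exportin gene, stood at 1.39 ± 0.43, with a first tag at 0.70 and 0.80 and a second at 1.47 and 2.58. KAP114, which encodes an import receptor and was chosen after its values were seen, read 1.47 and 1.51 on its first tag and 0.47 and 0.45 on its second, and its strain values of 0.97 and 0.98 lay just outside the size rule.

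Of 12 genes for pore-associated and pore assembly proteins, all were measured, with a median of -0.14, 7 below 0 and 5 above, and 0 past the size rule. BRR6, an essential gene of the nuclear envelope, was the lowest at -1.29 ± 0.59, with a first tag at -2.20 and -2.69 and a second at 0.45 and -0.72. HEH2, which encodes a protein of the inner nuclear membrane, was the highest at 0.92 ± 0.36, with a first tag at 0.88 and -0.16 and a second at 1.47 and 1.49. In these 3 lists 0 strains passed limma's adjusted test, and at an unadjusted p under 0.05 limma gave 4 export, 5 transport and 1 pore-associated strains lower and 3 export, 3 transport and 1 pore-associated strains higher. Over all strains these shares were 10.8% lower and 11.6% higher, so nothing is read from counts this small.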

How the data were processed

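The authors deposited 1 value table for 2 two-colour tag arrays, read with GenePix 5.1 per the labels. Its values are log2 ratios of the dyes, judged from the deposited values, whose linear ratios are whole hundredths (within 0.001). Each column's median was -0.136 as deposited. Normalization and numerator: not given in the sources used here. Of 22575 features, 18794 with values were named for 5325 genes through the platform annotation and the gene table of assembly R64. Signs were turned, features of a gene averaged within each of 2 tag blocks, each block of each array centred on its median, and the tags averaged (R 4.3.3, limma 3.58.1, lmFit and eBayes). The fit had 1 residual and 2.42 prior degrees of freedom. The scripts were tested on simulated data. The labels give the molecule as total RNA, although their protocol amplifies tags from genomic DNA. Members, classes, lists and named strains (all members, with full values for GLE2, NUP116, strains past the size rule, the extremes of each class and list, paralogs and neighbours of GLE2) were chosen with earlier results of these data known. No chromosome positions are given because no build is stated for the arrays. Alternatives covered centring, tags, feature summary, scaling, thresholds, fits, the essential class and leaving out either array.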

Additional observations from a re-analysis of the deposited data

How the results depend on the processing

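The GLE2 value kept its direction in every alternative run, from -2.10 to -1.51 with either array left out and from -1.83 to -1.68 otherwise, and it passed limma's test only in the fit of 4 tag values (-1.81, adjusted p 0.0412; 0.0963 to 0.261 in the others), the 1 member called there. GLE2 minus the median of the other nonessential strains ranged from -2.31 to -1.68. The 2 members past the size rule became 1, GLE2, with the second tag alone, the feature median, scaled blocks or 2-fold on both tags. They became 3 with the first tag alone (with NUP116 and NUP188) and 4 at 1.5-fold (with NUP159, NUP188 and POM152). With either array left out there were 2 to 4, and NUP116 and NUP120 joined on array 2 alone. Over all strains the rule took 97 lower and 37 higher, 97 and 36 with the feature median and 93 and 38 with scaled blocks. It took 270 and 98 with the first tag alone, 30 and 80 with the second, and 20 and 8 on both tags. At 1.5-fold it took 231 and 206, without array 1 150 and 137, and without array 2 185 and 253. The member counts are to be read against these. The median of the nonessential strains without GLE2 (0.23) was 0.35 without centring, 0.18 with the first tag alone, 0.12 with the second, and 0.17 to 0.21 with either array left out. The median of the essential strains (0.04) was 0.16 without centring and ranged from -0.14 to 0.094 with either array left out, so it lay below 0 without array 1. Signs of single strains that did not pass the test also turned. Without centring, which had subtracted 0.09 to 0.17 from the tag blocks, NSP1 read 0.073. With the first tag alone NUP1 read -0.55, NUP2 -0.11, NUP42 0.00074, NUP145 -0.17, NIC96 -0.31, GLE1 0.13 and NDC1 0.27. With the second tag alone NUP49 read 0.13, ASM4 -0.10, NUP60 -0.073, NUP82 -0.017, NUP192 -0.28 and NSP1 0.29. With either array left out NUP57 ranged from -0.32 to 0.36, NUP82 from -0.27 to 0.39 and MLP2 from -0.51 to 0.13. The cause of these turns was not tested. No paired analysis was possible because the 2 arrays form 1 group and each ratio already sets both pools against each other. Depth is unknown, as no intensities were used here.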
